A study of Rattus norvegicus with 3 samples.

Results

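Epithelial-mesenchymal transition (EMT) and mesenchymal identity are driven by a small set of transcription factors, and 10 of their genes are described here: Snai1, Snai2, Zeb1, Zeb2, Twist1, Twist2, Prrx1, Tcf21, Runx1 and Runx2. The genes were chosen with earlier results of these data known. Their probes were taken by gene name, or an older name of the same gene, on a rat Agilent microarray. All such probes that measure genes were taken, whatever their values. The 10 genes had 16 probes of the 41012 on the array, each a 60-base oligonucleotide. Zeb1 and Zeb2 are listed there under their older names Tcf8 and Zfhx1b.

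Expression was compared between rat iPS F65 and mix1. F65 is a line of untreated induced pluripotent stem (iPS) cells, and mix1 is a mixture of cultured adult rat bone marrow cells (BMC) and cultured rat primary ear fibroblasts (PEF). Total RNA of 3 iPS F65 samples, labelled with Cy3, was hybridised against mix1, labelled with Cy5, on 3 arrays of 1 slide. The iPS cells are 1 line, and they were kept on irradiated mouse embryonic fibroblasts, a feeder layer of mesenchymal cells whose RNA the probes may also detect; the part of feeder RNA in the iPS signals was not tested. The strain, age and sex of the rats and the proportions of the mixture are not given in the sources used here.

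The labels do not say that the 3 iPS samples came from separate cultures, so p-values reflect the spread of these 3 samples alone, and it may be technical spread. Mix1 is 1 control sample and its own spread is left out. With the same dye orientation throughout, a dye effect and a difference between the cells cannot be told apart. In RNA from bulk cells, fewer cells that express a gene and less RNA per cell cannot be told apart either. A value is the processed signal in arbitrary units, and a ratio is log2 of iPS F65 over mix1. Between 57.1% and 61.2% of gene spots per array were well above background in iPS F65, and between 58.3% and 62.1% in mix1. No spot was saturated, and the precision is limited by the number of arrays, 3.

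EMT is the change by which polarised epithelial cells lose their junctions and take on the shape and motility of mesenchymal cells. Snail and ZEB proteins bind the E-box sequence CAGGTG through zinc fingers and repress epithelial genes such as that of E-cadherin. Twist proteins are basic helix-loop-helix factors that pair with E proteins, Prrx1 is a homeobox factor of limb and facial mesenchyme, and Tcf21 is a basic helix-loop-helix factor of organ mesenchyme. Runx1 and Runx2 bind DNA together with Cbfb and are known for blood formation and bone formation. Reprogramming of fibroblasts is known to pass through the reverse change, a mesenchymal-to-epithelial transition.

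Some of the probe sequences show what the array measured. The probes of the Twist pair are shown because they lie in closely matching coding sequence. Whether either probe also binds the other gene's RNA was not tested. Capitals mark bases that are identical between both when aligned without gaps.
Twist1, probe 2, rn3 chr6:52609582-52609641, plus strand: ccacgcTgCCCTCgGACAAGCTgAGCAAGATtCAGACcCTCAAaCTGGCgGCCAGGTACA
Twist2, rn3 chr9:91221505-91221564, plus strand: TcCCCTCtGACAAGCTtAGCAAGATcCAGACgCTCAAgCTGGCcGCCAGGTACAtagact
They shared 47 of 54 overlapping bases, or 87.0%, with a longest identical run of 10 bases. Over the 120 pairs of member probes, the next most alike pair shared 53.7%. Despite this similarity the probes returned different ratios, as given with the Twist genes.

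The coding probes of Snai1 and Zeb1 are shown because they lie in the zinc-finger coding region, the part of these proteins that binds the E-box. Zinc fingers of this kind hold the zinc ion by cysteines and histidines. Capitals mark every in-frame codon for these amino acids, whether or not it is one of those residues.
Snai1, probe 2, rn3 chr3:158586613-158586672, plus strand: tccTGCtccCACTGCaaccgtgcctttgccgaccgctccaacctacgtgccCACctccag
Zeb1, probe 2, rn3 chr17:60188538-60188597, minus strand: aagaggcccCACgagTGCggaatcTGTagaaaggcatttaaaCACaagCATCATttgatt
The Snai1 probe held 2 cysteine and 2 histidine codons, and the Zeb1 probe held 2 and 4.

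A probe was tested where all 3 of its iPS F65 values, or all 3 of its mix1 values, were well above background, which 11 member probes of 8 genes passed. Each of these 8 genes had a lower signal in iPS F65 than in mix1 by every tested probe. All 8 genes and all 11 probes were called lower by limma at a Benjamini-Hochberg adjusted p under 0.05 with a log2 ratio of -1 or less. Over the whole array 24.5% of 21781 tested genes and 24.1% of 25801 tested probes were called lower, and 30.9% of genes and 31.2% of probes were called higher. The median ratio of all tested probes was 0.27, and 24680 of them had a limma adjusted p under 0.05, in either direction and at any size. Snai2 passed through mix1 alone, since only 2 of its 3 iPS values were well above background, and a gene that passes this way had to differ. The other 7 genes, with 10 probes, were well above background in both channels on every array, where 18.2% of 20525 such probes were called lower and 29.4% higher. Tcf21 and Runx2 were not tested.

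**Figure D1:**
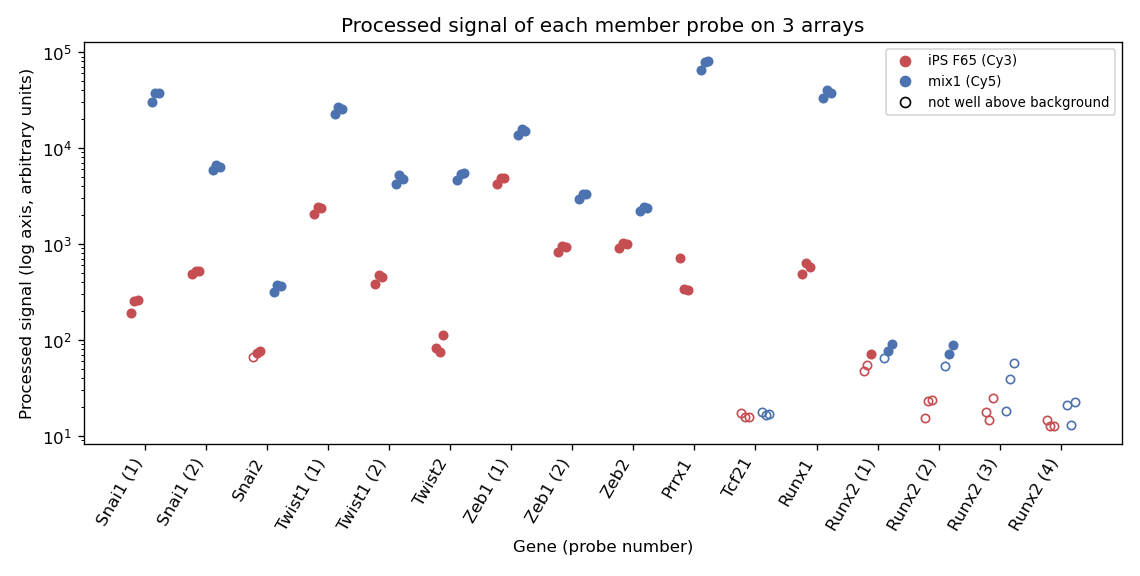
Processed signal (log axis, arbitrary units) of each of the 16 member probes, with 1 point per array, iPS F65 (Cy3) left of mix1 (Cy5). Open points were not well above background. Levels are to be read within a probe and not between probes. The iPS points lie below the mix1 points for all 11 tested probes, and the Tcf21 points of both groups lie together near 16.

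**Figure D2:**
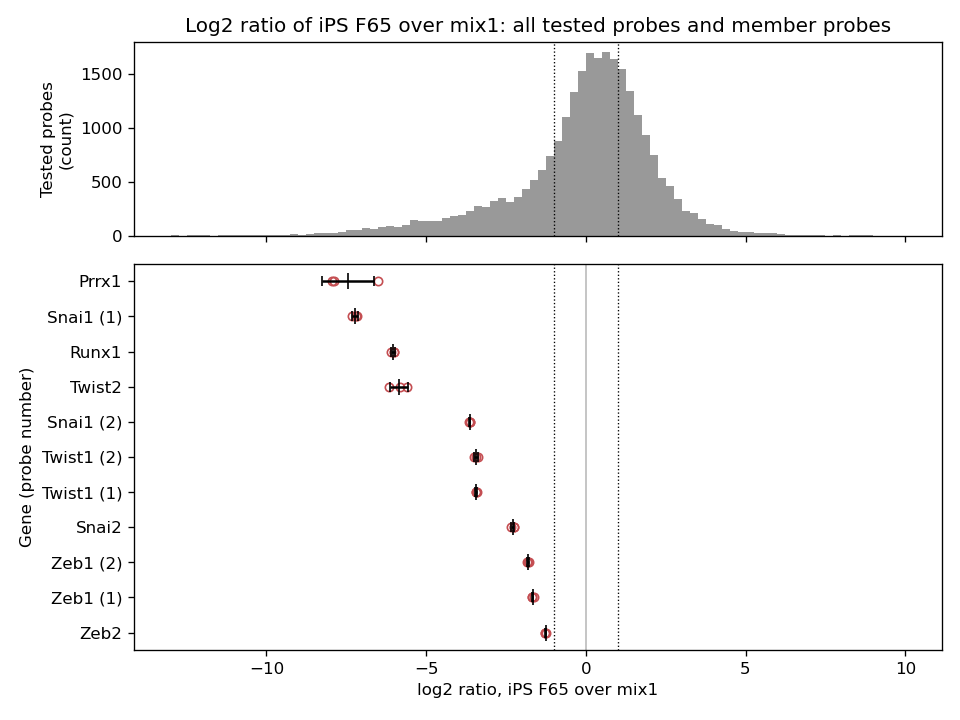
Log2 ratio of iPS F65 over mix1: a histogram of the 25801 tested probes above, and below it the 11 tested member probes, with a point per array, a tick at the mean and a bar of 1 SD (n = 3). Dotted lines mark log2 ratios of -1 and 1. The member probes span -7.44 for Prrx1 to -1.26 for Zeb2, and Prrx1 has the widest bar.

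Snai1 and Snai2 (Slug) encode the Snail zinc-finger repressors, which act at E-boxes of epithelial genes. Snai1 was lower in iPS F65 by 2 probes, though by very different amounts. Its brighter probe (rn3 chr3:158587424-158587483, plus strand) gave 189.9, 256.7 and 259.5 in iPS F65, against 30287, 37252 and 37449 in mix1. All iPS values were low and close together beside mix1 values that were far larger. The ratio was -7.22 ± 0.08 (SD, n = 3), or 149.5-fold lower in iPS F65 (limma adjusted p = 5.62e-06), and only 230 of the tested probes, or 0.891%, had a lower one.

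The zinc-finger probe of Snai1 gave 480.6, 521.1 and 524.3 in iPS F65, against 5976, 6636 and 6417 in mix1. Its ratio was -3.64 ± 0.03 (SD, n = 3), which is 12.47-fold lower in iPS F65, with a limma adjusted p of 5.48e-06. The probes therefore placed the same gene far apart on the ratio scale, although both gave a lower signal in iPS F65. Probe 1 minus probe 2 was -3.58 ± 0.09 (SD, n = 3) and kept its sign on 3 of 3 arrays, an 11.99-fold disagreement that was 6.53-fold with normexp on backgrounds as given. An exact two-sided sign-flip test gave p = 0.25, the smallest p that 3 arrays allow. The probes start 811 bases apart in the genome; the brighter one has 21.7% G and C and a stop codon in each forward frame, and the zinc-finger probe has 65%. What the brighter probe detects besides Snai1 was not tested, so the size of the Snai1 difference is uncertain between these values.

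Snai2 is known for its part in neural crest migration and in fibroblasts. Its probe, for which the file gives no coordinates, gave 66.29, 73.13 and 75.68 in iPS F65, against 317.9, 370.7 and 361.5 in mix1. Both groups were dim, yet every iPS value was below every mix1 value. The ratio was -2.29 ± 0.05 (SD, n = 3), or 4.879-fold lower in iPS F65 (limma adjusted p = 8.95e-06). It was smaller in size than the Snai1 ratio by either Snai1 probe: Snai1 minus Snai2 was -4.94 ± 0.11 by probe 1 and -1.35 ± 0.02 by probe 2 (SD, n = 3), each negative on 3 of 3 arrays, with an exact p of 0.25, the smallest that 3 arrays allow. With normexp background correction and loess the difference by probe 2 was -2.22. Snai3, the remaining Snail gene on the array, was not tested.

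Zeb1 and Zeb2 encode large zinc-finger and homeodomain repressors held in check by the miR-200 microRNAs in epithelial cells. With the processed signals they had the smallest differences among the tested members, an order that changed for Snai2 in other settings given below. Zeb1 gave 4255, 4926 and 4837 in iPS F65, against 13722, 15747 and 15038 in mix1, by its brighter probe (rn3 chr17:60186471-60186530, minus strand). The iPS signal was thus well above background, and clearly below the mix1 signal. The ratio was -1.67 ± 0.03 (SD, n = 3), or 3.177-fold lower in iPS F65 (limma adjusted p = 8.74e-06).

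The zinc-finger probe of Zeb1, which starts 2067 bases away, gave 831.5, 958.1 and 939.7 in iPS F65, against 2977, 3303 and 3279 in mix1. Its ratio was -1.81 ± 0.03 (SD, n = 3; limma adjusted p = 7.94e-06), so that the 2 Zeb1 probes differed by only 0.14 ± 0.03, above 0 on 3 of 3 arrays. Zeb2 (rn3 chr3:25409422-25409481, minus strand) gave 910.6, 1033 and 996.2 in iPS F65, against 2187, 2444 and 2390 in mix1. The ratio of Zeb2 was -1.26 ± 0.01 (SD, n = 3), a 2.389-fold lower signal in iPS F65 (limma adjusted p = 9.31e-06). With the processed signals it was the tested member nearest to 0 (Snai2 was nearer with normexp on backgrounds as given), and 5468 tested probes, or 21.2%, had a lower ratio. Zeb1 minus Zeb2 was -0.41 ± 0.03 (SD, n = 3), negative on 3 of 3 arrays; the exact sign-flip p was 0.25, which is the smallest possible.

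Twist1 and Twist2 encode closely related factors of mesoderm, cranial mesenchyme and dermis. Twist1 gave 2071, 2442 and 2391 in iPS F65, against 22683, 26509 and 25467 in mix1, by its brighter probe (rn3 chr6:52610600-52610659, plus strand). The coding probe shown above, which starts 1018 bases away, gave 378.7, 477.7 and 449.0 in iPS F65, against 4259, 5210 and 4701 in mix1. By either probe every iPS value was far below every mix1 value. The ratios were -3.44 ± 0.02 (10.82-fold lower in iPS F65, limma adjusted p = 5.46e-06) and -3.44 ± 0.05 (10.87-fold lower, limma adjusted p = 6.47e-06; SD, n = 3 each). Their difference was 0.01 ± 0.03 (SD, n = 3; exact sign-flip p = 0.75), with values of 0.04, 0.01 and -0.03 on the 3 arrays.

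Twist2, known from dermal fibroblasts and bone precursors, stood further apart. It gave 82.28, 74.91 and 111.1 in iPS F65, against 4610, 5389 and 5433 in mix1. The iPS values were dim, though the software marked each as well above background, and none came near mix1. The ratio was -5.86 ± 0.28 (SD, n = 3), or 58.19-fold lower in iPS F65 (limma adjusted p = 3.12e-05). Twist2 minus Twist1, by the brighter Twist1 probe, was -2.43 ± 0.27 (SD, n = 3) and negative on 3 of 3 arrays, a 5.379-fold wider difference. The exact sign-flip p was again 0.25, the smallest that 3 arrays allow. The size of this gap depended on the background: it was -1.57 (2.98-fold) with normexp on replaced uneven backgrounds, -1.52 (2.86-fold) with no background subtraction and -0.10 (1.07-fold) with normexp on backgrounds as given. In that last setting the Twist1 probes differed by -0.73. The brighter one was at -3.20 and the coding one at -2.475, beside Twist2 at -3.30.

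Prrx1 had the lowest ratio among the members and Tcf21 had no signal above background. Prrx1 (rn3 chr13:78976156-78976215, minus strand) gave 714.2, 340.1 and 331.9 in iPS F65, against 65406, 79746 and 81613 in mix1. The iPS value of array 1 was well above the others, while mix1 was lowest on that array. The ratio was -7.44 ± 0.80 (SD, n = 3), or 174.1-fold lower in iPS F65 (limma adjusted p = 0.000246), and 186 tested probes, or 0.721%, had a lower one. Its SD was reached by 1.02% of tested probes, against a median SD of 0.04. Without array 1 the ratio was -7.91 (limma adjusted p = 0.000229). Prrx1 and the brighter Snai1 probe could not be ordered: Prrx1 minus Snai1 was 0.80, -0.69 and -0.77 on the 3 arrays, with a mean of -0.22 ± 0.89 (SD, n = 3; exact sign-flip p = 1.0).

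Tcf21 (rn3 chr1:23214314-23214373, plus strand) was listed at 17.4, 15.83 and 15.65 in iPS F65, against 17.77, 16.26 and 16.86 in mix1. None of these values was well above background, and all of them were surrogates that the scanner software sets near background. No fold can be given, and a low level of Tcf21 in either group was not detectable with this probe. Prrx2, the paralogue of Prrx1, gave 374.1, 515.3 and 465.5 in iPS F65, against 36683, 47795 and 44572 in mix1. Its ratio of -6.58 ± 0.04 (SD, n = 3; limma adjusted p = 5.31e-06) was steady on all 3 arrays.

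Runx1, a factor of blood stem cells that some mesenchymal cells also express, was lower in iPS F65. Its probe (rn3 chr11:32679834-32679893, minus strand) gave 482.2, 628.4 and 578.9 in iPS F65, against 33200, 39961 and 37304 in mix1. Mix1 was uniformly high and iPS F65 uniformly low. The ratio was -6.04 ± 0.06 (SD, n = 3), or 65.59-fold lower in iPS F65 (limma adjusted p = 5.48e-06), and 553 tested probes, or 2.14%, had a lower one. Runx1 lay beside Twist2 in the order of ratios, and Runx1 minus Twist2 was -0.17 ± 0.31 (SD, n = 3; exact sign-flip p = 0.5), which is within the spread. This held for the processed signals only. The difference was -0.93 with normexp on replaced uneven backgrounds and -0.98 with no background subtraction. With normexp on backgrounds as given it was -1.775 (3.42-fold).

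Runx2, the factor that commits cells to the osteoblast lineage, was dim in both groups by all 4 of its probes. The brightest probe, whose ends lie 1781 bases apart on rn3 chr9:12016468-12018248, gave 47.57, 54.04 and 70.55 in iPS F65, against 64.97, 75.96 and 89.71 in mix1. The software marked it well above background on 1 of 3 arrays in iPS F65 and on 2 of 3 in mix1. A further probe (rn3 chr9:11789815-11789874, plus strand) gave 15.35, 22.88 and 23.29 in iPS F65, against 53.58, 71.61 and 88.85 in mix1, and was well above background on 0 of 3 arrays in iPS F65 and on 2 of 3 in mix1. Both sets of mix1 values were the higher ones on each array, but with iPS values at or near background no fold is given. The remaining 2 probes were not well above background on any array in either group.

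With the processed signals the order of the tested ratios thus began with Prrx1 and the brighter Snai1 probe, then Runx1 and Twist2, the zinc-finger probe of Snai1 and both Twist1 probes, then Snai2, Zeb1 and Zeb2. Within 3 families the paralogues had unequal ratios with these signals, Snai1 below Snai2, Twist2 below Twist1 and Zeb1 below Zeb2, on 3 of 3 arrays in each case. These gaps are between different probes, and probes of 1 gene can differ as well. The 2 Snai1 probes differed by -3.58, while the Zeb gap was -0.41. The Twist gap, by the brighter Twist1 probe, was only -0.10 with normexp on backgrounds as given. The Twist1 probes themselves differed by -0.73 in that setting. Snai2 was near background in iPS F65. The ratios depend on how background and dye were handled, but none changed sign in any of the alternatives tried. Some of these, such as the filters on dim probes, leave a probe's ratio as it is. The order of Snai2 and Zeb1 did not hold: Snai2 minus Zeb1 was -0.62 with the processed signals, 0.37 with normexp on replaced uneven backgrounds and 0.40 with no background subtraction. With normexp on backgrounds as given it was 0.90, and Snai2 came last. With normexp on replaced backgrounds, called the normexp setting hereafter, the median of all tested probes was -0.06 in place of 0.27, and 41.8% of the called probes were higher in place of 56.5%. The members did not all move the same way. In that setting Snai2 was at -1.69 and Twist2 at -5.36, nearer to 0 than with the processed signals, whereas Twist1 at -3.78, Zeb1 at -2.05 and Zeb2 at -1.59 lay further from it, and all 8 genes were still called lower. With normexp on backgrounds as given, where the arrays scattered more, Snai2 (-0.73, limma adjusted p = 0.225), Twist2 (-3.30, 0.0510) and Zeb2 (-1.002, 0.0599) lost the call.

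**Figure D3:**
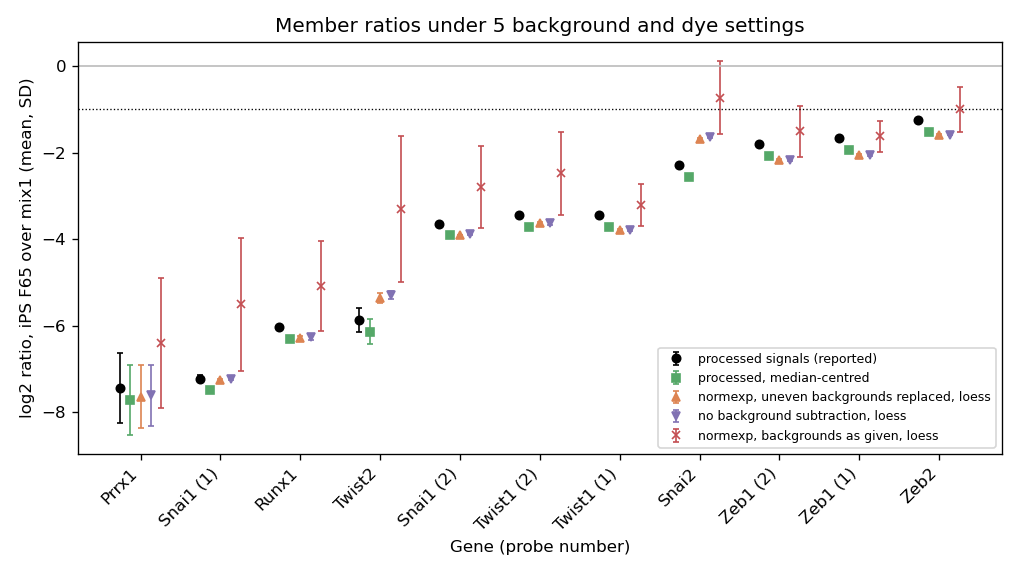
Mean log2 ratio of iPS F65 over mix1 (vertical axis, bars of 1 SD, n = 3) for the 11 tested member probes under the reported processed signals and 4 other background or dye settings, told apart by marker. Solid and dotted horizontal lines mark log2 ratios of 0 and -1. Every mean lies below 0, and the widest bars belong to normexp with backgrounds as given, where Snai2 is at -0.73.

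Genes that EMT factors are known to act on were then examined in lists taken from textbook knowledge. These lists, too, were chosen with earlier results of these data known. Of 23 tested epithelial genes that EMT factors repress, 11 were called higher in iPS F65, 7 lower and 5 neither, with a median ratio of 0.92 against 0.25 over all tested genes. Of the 15 with a signal above background in both groups throughout, 6 were called higher and 5 lower. The median was 0.42 in the normexp setting, where 11 were again called higher and 7 lower, and 0.14 with normexp on backgrounds as given, where 1 was called higher and 1 lower. Cdh1, which encodes E-cadherin, the classic target of Snail and ZEB proteins, gave 208.4, 231.1 and 252.5 in iPS F65, against 18.49, 23.09 and 32.52 in mix1. No mix1 value was well above background, and the difference is at least 3.43-fold higher in iPS F65 (limma adjusted p = 0.000126). Such a bound sets the mean normalised log2 level of the brighter group against the lowest level above background on each array of the dimmer one, or the dim probe's own level where that is higher. Epcam, an epithelial adhesion molecule, gave 1821, 1938 and 1936 in iPS F65, against 27.25, 29.04 and 40.19 in mix1, which is at least 28.32-fold higher (limma adjusted p = 2.81e-05). Marveld2 and Ocln, both tight-junction genes, rose too, Marveld2 by at least 5.129-fold and Ocln with a ratio of 3.75 ± 0.46 (SD, n = 3; limma adjusted p = 0.000354).

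The epithelial list did not move one way. Gjb2, a gap-junction gene, was lower in iPS F65 by at least 59.45-fold (limma adjusted p = 1.46e-05), Jup (plakoglobin) had a ratio of -4.93 ± 0.08 and the keratin gene Krt8 one of -2.62 ± 0.54, whereas its partner keratin Krt18 was at 3.00 ± 0.10 (SD, n = 3 each; limma adjusted p of 6.53e-06, 0.00156 and 1.48e-05 in this order). Krt8 gave 63.41, 37.8 and 87.45 in iPS F65, well above background on 1 of 3 arrays. It passed the filter through mix1 alone, so the size of its ratio is uncertain. The summed signal of the list was 12057 to 13992 in iPS F65, against 14990 to 16992 in mix1. Esrp1, a splicing regulator repressed by Snail and ZEB factors, is not named on the array.

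The mesenchymal genes that EMT is known to raise were almost uniformly lower in iPS F65: 25 of 26 tested were called lower, 1 higher, with a median ratio of -7.03. Of the 21 with a signal above background in both groups throughout, 20 were called lower. Postn, a matrix protein of fibroblasts, was lower in iPS F65 by at least 481.7-fold (limma adjusted p = 7.35e-06), and Col3a1, a fibrillar collagen, had a ratio of -10.09 ± 0.05. Vim (vimentin) was at -4.36 ± 0.04 and Fn1 (fibronectin) at -7.70 ± 0.07 (SD, n = 3 each; limma adjusted p of 5.48e-06 for Vim and 5.31e-06 for Col3a1 and Fn1). Cdh2 alone rose. It encodes N-cadherin, the usual mesenchymal counterpart of E-cadherin. Cdh2 gave 2531, 2944 and 2955 in iPS F65, against 829.6, 963.3 and 961.1 in mix1, a ratio of 1.61 ± 0.01 (SD, n = 3; limma adjusted p = 6.77e-06). Both Cdh1 and Cdh2 were thus higher in iPS F65.

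**Figure D4:**
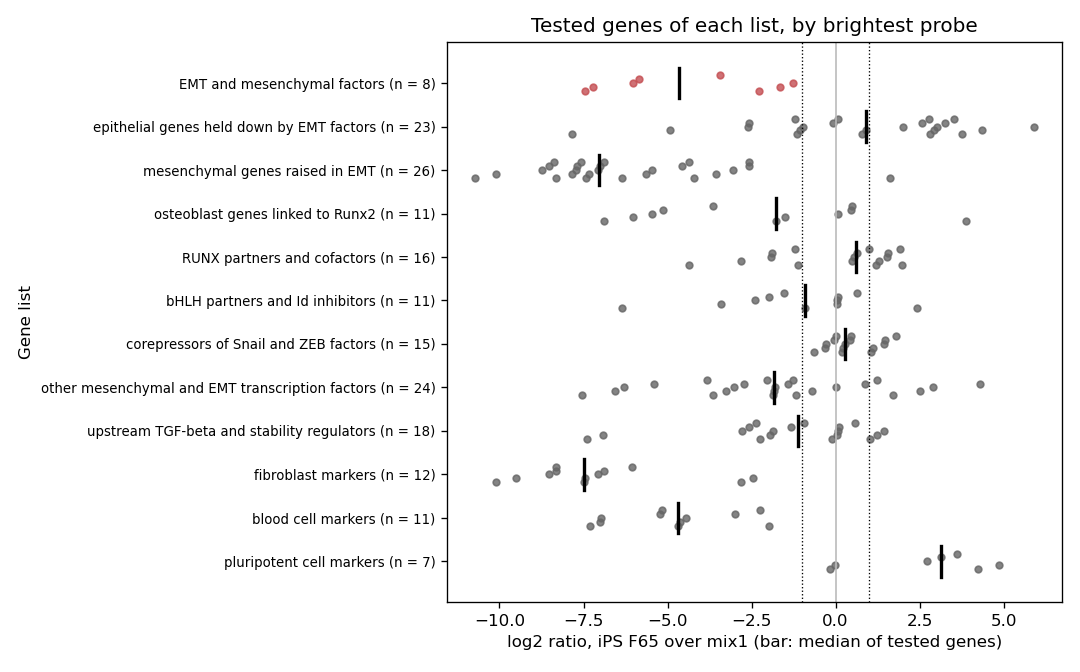
Log2 ratio of iPS F65 over mix1 of each tested gene, by its brightest probe, for the 8 tested members (top) and 11 gene lists. Points are genes, thick bars are list medians, and dotted lines mark -1 and 1. The members and the mesenchymal, fibroblast and blood lists lie left of 0 apart from Cdh2, and epithelial genes lie on both sides.

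The wider groups of transcription factors and regulators gave a mixed picture. Of 24 other tested transcription factors of mesenchyme or EMT, 15 were called lower in iPS F65 and 5 higher, with a median of -1.82. Of the 20 above background in both groups throughout, 14 were called lower and 3 higher. Sox9, a factor of cartilage and neural crest, was lower by at least 71.25-fold (limma adjusted p = 0.000876), with 63.87, 14.74 and 16.43 in iPS F65, against 4341, 4819 and 4926 in mix1. None of the iPS values of Sox9 was well above background. Lef1, a Wnt effector, was at least 16.86-fold higher in iPS F65 (limma adjusted p = 1.19e-05).

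A further list held basic helix-loop-helix factors, among them partners of the Twist proteins, and the Id inhibitors. Of its 11 tested genes, 5 were called lower in iPS F65, 1 higher and 5 neither, with a median of -0.91. Of the 10 above background in both groups throughout, 5 were called lower and 0 higher. The 5 called lower were Tcf4 and the 4 Id genes. The E-protein genes Tcf3 and Tcf12, whose products pair with Twist, had ratios of 0.05 and 0.04, neither of which was called, while the E-protein gene Tcf4 was at -1.996 ± 0.016 (SD, n = 3; limma adjusted p = 6.37e-06). All 4 Id genes, which encode inhibitors that bind E proteins and keep them from DNA, were called lower in iPS F65: Id1 at -2.40, Id2 at -1.55, Id3 at -6.36 and Id4 at -3.42, with a limma adjusted p of 6.94e-06 or less. Hand2, a basic helix-loop-helix factor of heart and limb, was the gene called higher, at 2.44 ± 0.07 (SD, n = 3, limma adjusted p = 1.32e-05). It passed the filter through iPS F65 alone, since mix1 was well above background on 2 of 3 arrays.

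Genes for corepressors that Snail and ZEB proteins recruit showed small differences. Of 15 tested, 5 were called higher in iPS F65, 0 lower and 10 neither, with a median of 0.29, close to the 0.25 of all tested genes; in the normexp setting the median was -0.18 and 1 was called higher. Suv39h1, a histone methyltransferase, was at 1.80 ± 0.04, and Ctbp2, a corepressor bound by ZEB proteins, at 1.46 ± 0.16 (SD, n = 3 each; limma adjusted p of 1.09e-05 for Suv39h1 and 0.000255 for Ctbp2). Kdm1a, a histone demethylase that binds Snail, was at 1.11 ± 0.03 (limma adjusted p = 1.60e-05). Over all tested genes 30.9% were called higher and 24.5% lower, so the 5 of 15 called higher lay near the share of all genes.

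The partners of Runx factors were called in both directions, 6 higher in iPS F65 and 6 lower of 16 tested, with a median of 0.60; in the normexp setting 4 were higher and the median was 0.17. Cbfb, the shared partner of the Runx proteins, gave 22731, 25958 and 25280 in iPS F65, against 8004, 9061 and 8510 in mix1, a ratio of 1.53 ± 0.03 (SD, n = 3; limma adjusted p = 1.17e-05). Runx3 was at -1.11 ± 0.18 (limma adjusted p = 0.000861). Of the Groucho-type corepressors, Tle2 was at -4.36 ± 0.09 and Tle4 at 1.99 ± 0.85 (limma adjusted p of 7.74e-06 for Tle2 and 0.013 for Tle4), the Tle4 ratio varying widely between arrays. Runx1t1, a corepressor gene joined to Runx1 in leukaemia, was at -2.81 ± 0.14 (SD, n = 3 for each of these, limma adjusted p = 3.25e-05). Tle4 passed the filter through iPS F65 alone, since its mix1 signal was well above background on 2 of 3 arrays.

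Although Runx2 itself was dim, 7 of 11 tested osteoblast genes linked to it were called lower in iPS F65, 1 higher and 3 neither, with a median of -1.79. Of the 7 above background in both groups throughout, 5 were called lower and 0 higher. Spp1 (osteopontin) was at -6.04 ± 0.04 (SD, n = 3; limma adjusted p = 5.31e-06). Col1a1, which is also on the mesenchymal and fibroblast lists, was at -6.90 ± 0.13 by its brightest probe, with a range of -12.29 to -6.87 over 3 tested probes. Tnfsf11 (RANKL), the cytokine that induces osteoclasts, was the exception, at least 3.597-fold higher in iPS F65 (limma adjusted p = 6.05e-05).

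Among 18 tested genes upstream of the factors, in TGF-beta signalling or in the control of Snail stability, 9 were called lower in iPS F65 and 3 higher, with a median of -1.13. Of the 16 above background in both groups throughout, 7 were called lower and 3 higher. Tgfb3 and Tgfb1, ligands known to induce EMT, fell the most, Tgfb3 with a ratio of -7.39 ± 0.06 (SD, n = 3; limma adjusted p = 5.31e-06) and Tgfb1 by at least 105.9-fold (limma adjusted p = 8.27e-06). Smad4, the shared signal transducer, was higher at 1.44 ± 0.03 (limma adjusted p = 1.21e-05), but in the normexp setting 0 of the list's genes were called higher and 10 lower.

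Markers of the cell types in mix1 moved with the members. All 12 fibroblast markers tested were called lower in iPS F65, with a median of -7.48 and a summed signal of 23876 to 29267 in iPS F65, against 1912518 to 2416368 in mix1. Of the 10 above background in both groups throughout, 10 were called lower, against 18.2% of all such probes. Dcn (decorin), a matrix proteoglycan of fibroblasts, was at -9.51 ± 0.04 (SD, n = 3; limma adjusted p = 5.31e-06). Thy1 and Ddr2 were not well above background on any array in iPS F65. Of 11 blood cell markers, 10 were called lower and 1 neither, with a median of -4.69 and a summed signal of 4537 to 5681 in iPS F65, against 266363 to 309681 in mix1. Only 7 of them were above background in both groups throughout, and these 7 were called lower. Ptprc, the pan-leukocyte CD45 gene, gave 16.01, 300.6 and 14.02 in iPS F65, against 122.7, 392.0 and 153.6 in mix1, and was not called (limma adjusted p = 0.0547); iPS F65 was well above background on array 2 alone. Lyz2 and Tyrobp, genes of macrophages, were at -7.30 ± 0.05 and -7.01 ± 0.07, and Spi1, the blood factor PU.1, at -4.46 ± 0.996 (SD, n = 3 each; limma adjusted p of 5.31e-06, 5.48e-06 and 0.00199 in this order). Spi1 gave 17.23, 84.21 and 27.63 in iPS F65, well above background on 1 of 3 arrays, so the size of its ratio is uncertain. The 2 tested Tyrobp probes disagreed in size, with ratios of -7.01 and -4.30. Itgam and Vav1 were not well above background on any array in iPS F65. Ptprc, Spi1, Itgam and Vav1 thus passed through mix1 alone, a route that favours a lower signal in iPS F65. The part that the makeup of mix1 plays in each member's ratio was not tested.

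The tested pluripotent cell markers mostly ran the other way. Of 16 listed names, 10 had a probe and 7 were tested. Fgf4, Dnmt3l and Esrrb had a probe but were not tested, and Nanog is not named on the array. Among the 7 tested names, 5 were called higher in iPS F65 and 2, both names of Lin28 probes, neither. Pou5f1 and Dppa3 passed the filter through iPS F65 alone. Of the 5 names above background in both groups throughout, 3 were called higher, against 29.4% of all such probes. The tested markers had a median of 3.14 and a summed signal of 16636 to 19507 in iPS F65, against 1474 to 1581 in mix1. Their median was 1.82 in the normexp setting and 1.84 with no background subtraction, with 5 called higher in each, and 0.74 with normexp on backgrounds as given, with 3 called higher. Nr0b1 was at 4.87 ± 0.05, Dnmt3b at 4.22 ± 0.12 and Sox2 at 3.14 ± 0.40 (SD, n = 3 each; limma adjusted p of 5.48e-06 for Nr0b1, 1.17e-05 for Dnmt3b and 0.000403 for Sox2), and Pou5f1 (Oct4) was at least 4.532-fold higher (limma adjusted p = 0.00176). Of the genes often used as stable controls, Actb was at -3.87 ± 0.06 and Gapdh at -0.73 ± 0.02 (SD, n = 3 each). The limma adjusted p was 6.25e-06 for Actb and 3.48e-05 for Gapdh. Gapdh was lower in iPS F65 by 2 tested probes, at -0.91 and -0.73, but missed the 2-fold threshold and was not called.

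The E-box to which Snail and ZEB proteins bind was looked for in promoter windows of RefSeq (rat assembly GRCr8), from 250 bases before to 50 bases after each gene's start. Both strands were searched for CAGGTG, which reads CACCTG on the other strand. Of 33469 windows, 18.8% held it at least once. Windows were given for 9 of the 10 members, and 2 of the 10 windows held the motif, those of Snai1 and Zeb1, a share of 20% that is close to that of all windows. The Snai1 window held it once, at 142 bases before the start, and the Zeb1 window held it at 95 bases before and 38 bases after. These windows are shown because the genes belong to families that bind this sequence; capitals mark the motif.
Snai1, GRCr8 chr3:176667226-176667525, plus strand: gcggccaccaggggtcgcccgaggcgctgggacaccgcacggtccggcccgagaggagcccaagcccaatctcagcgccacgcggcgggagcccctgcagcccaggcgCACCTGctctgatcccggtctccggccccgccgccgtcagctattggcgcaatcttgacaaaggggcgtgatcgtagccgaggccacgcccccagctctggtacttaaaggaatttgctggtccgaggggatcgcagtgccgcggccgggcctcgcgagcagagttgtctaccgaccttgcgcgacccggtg
Zeb1, GRCr8 chr17:56810604-56810903, minus strand: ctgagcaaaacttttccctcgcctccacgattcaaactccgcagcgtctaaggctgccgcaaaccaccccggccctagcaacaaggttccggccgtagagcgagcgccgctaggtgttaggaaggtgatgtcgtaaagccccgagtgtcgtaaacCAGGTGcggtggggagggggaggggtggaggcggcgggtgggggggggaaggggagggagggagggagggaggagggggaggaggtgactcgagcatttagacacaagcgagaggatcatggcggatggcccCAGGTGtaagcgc

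For the 32 genes of the epithelial list only 17 windows were given, and Cdh1 had none. Of these windows 15, or 88.2%, held the motif, and 5 held it at least 2 times, or 29.4% against 2.52% of all windows. The list was drawn up from genes that EMT factors are known to repress, some of them known for their E-boxes, so this share describes the list and is not independent of it. Its windows are rich in G and C, with a median of 66.3% against 51.7% over all windows, and of all windows at or above that median 19.8% held the motif. For the mesenchymal list 2 of 14 windows did, or 14.3%. The Epcam and Ocln windows are shown as examples among epithelial genes that were higher in iPS F65; Epcam held the motif at 165 bases before the start, and Ocln at 137 and 68 bases before.
Epcam, GRCr8 chr6:12649629-12649928, minus strand: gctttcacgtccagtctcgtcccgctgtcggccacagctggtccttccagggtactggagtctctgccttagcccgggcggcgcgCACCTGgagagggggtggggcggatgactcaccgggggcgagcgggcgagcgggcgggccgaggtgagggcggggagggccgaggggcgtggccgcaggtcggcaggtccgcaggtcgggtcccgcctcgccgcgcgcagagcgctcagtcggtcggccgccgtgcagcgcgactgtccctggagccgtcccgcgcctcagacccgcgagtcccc
Ocln, GRCr8 chr2:33441149-33441448, minus strand: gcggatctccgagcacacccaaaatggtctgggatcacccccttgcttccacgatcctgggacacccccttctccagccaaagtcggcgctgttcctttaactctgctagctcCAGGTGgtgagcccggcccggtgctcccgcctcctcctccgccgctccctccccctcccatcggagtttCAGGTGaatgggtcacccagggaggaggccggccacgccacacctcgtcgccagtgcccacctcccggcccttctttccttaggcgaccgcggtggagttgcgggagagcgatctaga
The motif did not separate the epithelial genes by their ratio. It was present in 6 of 8 windows of genes called higher in iPS F65, in 5 of 5 windows of genes called lower, in the 1 window of a gene called neither and in 3 of 3 windows of genes not tested. Gjb2 and Jup, the epithelial genes with the lowest ratios, held it too. A match says only that these letters are in the window.

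**Figure D5:**
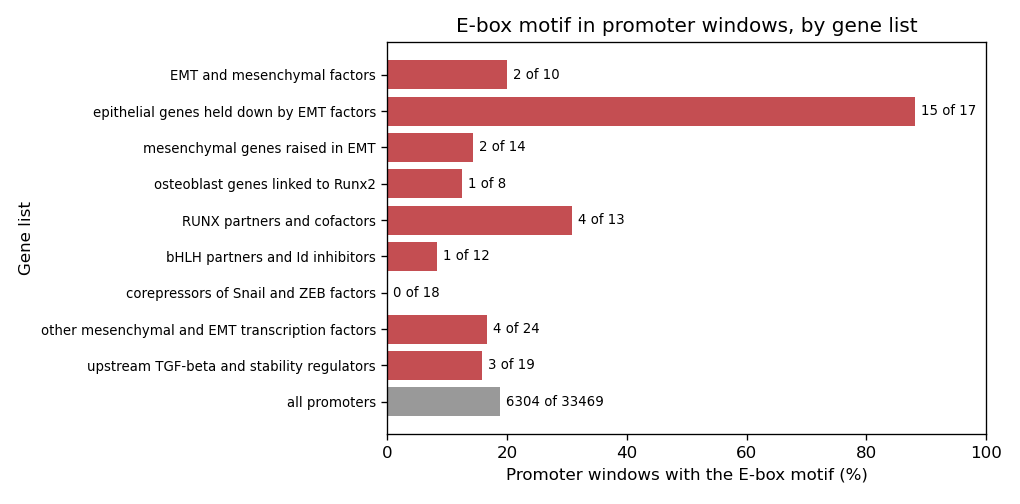
Share (%) of promoter windows that hold CAGGTG on either strand, for the members, 8 gene lists and all 33469 windows, with the counts printed beside each bar. The epithelial list stands at 88.2%, and the members at 20.0% lie near the 18.8% of all windows.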

How the data were processed

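Total RNA of 3 iPS F65 samples (Cy3) was hybridised against mix1 (Cy5) on 3 arrays. Per the file headers, Agilent Feature Extraction 9.5.3.1 read the scans, with rn3 coordinates. Per the file headers, the intensity values used are processed signals that the software had background-subtracted, detrended across the array, given surrogates near background and dye-normalized by linear and LOWESS scaling. The log2 values deposited in the series matrix equalled log2 green over red processed signals to within 3.1e-06, which sets their direction and shows no further centring, with medians of 0.003, -0.005 and -0.06.

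Log2 ratios of processed signals were used. Control spots and outlier spots (204 to 213 per array) were left out, and spots of 1 probe were averaged. Mean ratios were tested against 0 in R 4.3.3 by lmFit and eBayes of limma 3.58.1, adjusted by Benjamini-Hochberg over all 25801 tested probes. A call needed a log2 ratio of at least 1 in size and an adjusted p under 0.05. Genes were represented by their brightest tested probe and named through RefSeq by accession (10861 probes), symbol (5536) or older name (3704); 20911 probes kept the file's name. Bounds used levels after Aquantile normalization. The text names every member, 20 fixed genes, and per list 3 called genes (the 2 most changed in the list's main direction, 1 the other way); Ocln, Jup, Krt8, Krt18, Tcf3, Tcf4, Tcf12, Id1, Id2, Kdm1a, Ddr2, Itgam and Vav1 were added after their values were seen. The members and lists were chosen with earlier results of these data known. The alternatives tried were normexp with offset 50 and loess (with uneven backgrounds replaced, or as given), no background subtraction, centring, the series matrix, other filters on dim probes, an intensity trend, the mean over a gene's probes, and leaving out each array. The script was tested on simulated data. All arrays lay on 1 slide, so no block for the slide could be fitted.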

Additional observations from a re-analysis of the deposited data

How the results depend on the processing

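The 8 tested members kept a negative ratio in every alternative in which they were tested, and 0 members were called higher in any. The series matrix, the filters on dim probes and the intensity trend leave a probe's ratio as it is, so they could not change its sign. Without replicate 1, 2 or 3 in turn, 8 members were called lower each time, and the probes called ranged from 8003 to 8046 higher and from 6130 to 6184 lower, against 8060 and 6206. With normexp on backgrounds as given, 5 members were called lower; Snai2 (-0.73), Twist2 (-3.30) and Zeb2 (-1.002) were not, with adjusted p of 0.225, 0.0510 and 0.0599. It also called fewer genes of the other lists, such as 3 osteoblast genes lower in place of 7 and 5 upstream genes in place of 9. That setting called 2780 probes higher and 2361 lower. Normexp with uneven backgrounds replaced called 4738 higher and 6611 lower, and no background subtraction 4736 higher and 6558 lower; the cause was not tested. Probes called higher made up 41.8% and 41.9% of calls in these, against 56.5% in the reported setting, 47.1% after centring on each array's median and 61.7% among probes above background in both channels, where 3744 were called lower. Over the alternatives Prrx1 ranged from -7.91 to -6.40, Runx1 from -6.31 to -5.08, the brighter Snai1 probe from -7.50 to -5.51 and Zeb2 from -1.594 to -1.002. The test used the ratio within each array, so iPS F65 and mix1 were paired by array, always against 1 mix1 sample. Signal near background limits Snai2, Twist2, Tcf21 and Runx2 most, and 3 arrays of 1 dye orientation limit every value.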
